A study of Mus musculus with 8 samples.

Results

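The 9 genes described here encode regulators of transcription that act in the circadian clock or carry its signal to other genes, together with Bcl6. They are Dbp, Tef, Hlf, Nfil3, Bhlhe40, Bhlhe41, Ciart, Rora and Bcl6, and they were found by symbol among the 22183 genes of a liver mRNA sequencing table, where each matched 1 gene. The 8 libraries came from C57 mice, a common inbred laboratory strain, and form 3 groups. APAP_MSC (n = 3) was given 400 mg/kg APAP by intraperitoneal injection and, after 4 hours, MSCs by the tail vein. APAP is the common short name of acetaminophen, a painkiller that injures the liver at high dose, and MSC commonly stands for mesenchymal stromal or stem cell. APAP_PBS (n = 3) is labelled APAP+PBS and is read as the same dose of APAP with PBS, a salt solution. CTRL (n = 2) is labelled control; its treatment text is the same as that of the other groups, so liver without APAP is read from the label alone. Livers were taken at 24 hours, and the labels used here give neither the hour of day nor the sex or age of the mice.

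In the mammalian clock, CLOCK or NPAS2 pairs with BMAL1 (gene Arntl) on E-boxes and drives the Per, Cry and Nr1d genes, whose products shut this activation down. The same E-boxes drive output factors. DBP, TEF and HLF, the PAR bZIP proteins, activate genes through D-boxes, and NFIL3 (also called E4BP4) represses through the same D-boxes. BHLHE40 and BHLHE41 (DEC1 and DEC2) and CIART (CHRONO) repress at E-boxes, while RORA activates at ROR elements that the REV-ERB proteins NR1D1 and NR1D2 occupy as repressors. BCL6 is a zinc finger repressor. In mouse liver it occupies sites of STAT5, the factor that growth hormone activates, and it restrains genes of fatty acid oxidation. Most of these genes have a strong daily rhythm in liver, with Dbp among the steepest.

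Library totals ran from 16261200 to 24516500 estimated counts, in a set of 4 shallower libraries (up to 16626800) and a set of 4 deeper ones (from 22543900), each holding libraries of all 3 groups. On the first principal component, with 45% of the variance, APAP_MSC replicate 2 lay at 14.4, nearer to CTRL (46.1 and 54.5) than the other APAP libraries (-34.3 to -13.5). The CTRL libraries lay far apart on the second component, at -40.9 and 29.4. Libraries of the same group gave chi-square values per degree of freedom of 13 to 67.9, above sampling noise, so none was counted as a repeat. The labels do not state that each sample is its own animal, and the spread behind the p-values may therefore be technical. The liver label was checked against 5 measured hepatocyte markers out of 6, whose summed level was 77020 to 85770 CPM in APAP_MSC, 71520 to 84280 in APAP_PBS and 92530 and 108800 in CTRL. CPM is a gene's count scaled to the library's total after TMM normalisation.

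Sequence before the RefSeq starts of the genes is shown first because E-boxes are the sites through which the clock drives several of these genes. RefSeq promoter sequences (GRCm38.p6) were at hand for 8 of the 9 genes, at 10 starts, and the 250 bases before each start were searched on both strands. The E-box CACGTG was found at 5 of the 10 starts, in 4 genes, against 6.02% of 32851 promoters of the same length. The 9-base core TTCNNNGAA, shared by BCL6 and STAT5 sites, was found at 3 starts in 2 genes, against 7.02% of promoters. The D-box TTATGTAA was found at 0 of the 10 starts (0.819% of promoters), and the core AGGTCA of ROR elements at 1 start, that of Nfil3 (14% of promoters). These motifs do not overlap in the stretches below, in which E-boxes and TTCNNNGAA cores are in capitals.
Ciart, chr3:95882252-95882359, minus strand: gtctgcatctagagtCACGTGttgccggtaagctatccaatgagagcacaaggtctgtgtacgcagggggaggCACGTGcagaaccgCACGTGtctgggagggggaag
Bhlhe41, chr6:145865553-145865588, minus strand: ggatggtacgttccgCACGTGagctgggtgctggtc
Tef, second start, chr15:81811261-81811296, plus strand: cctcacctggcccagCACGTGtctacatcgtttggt
Bcl6, upstream start, chr16:23988892-23988985, minus strand: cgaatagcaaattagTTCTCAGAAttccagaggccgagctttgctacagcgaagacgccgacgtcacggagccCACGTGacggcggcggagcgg
Bcl6, downstream start, chr16:23981348-23981466, minus strand: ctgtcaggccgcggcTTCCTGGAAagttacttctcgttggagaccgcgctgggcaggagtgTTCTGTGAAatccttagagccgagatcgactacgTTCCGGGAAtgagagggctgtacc
RefSeq and GENCODE M21, from which the gene positions below are taken, differ in where some transcripts start. The Ciart stretch and that of the upstream Bcl6 start lie outside the GENCODE gene. That of Bhlhe41 reaches 6 bases into its first exon, and those of the second Tef start and the downstream Bcl6 start lie in introns of longer GENCODE transcripts. The matches before the Dbp start and the first Tef start fall in a GENCODE first exon and are not printed. Ciart held 3 E-boxes within 116 bases of its RefSeq start and Bcl6 held 3 TTCNNNGAA cores before its downstream start. A match in these windows is a description of letters and does not show that a factor bound there.

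The 9 genes were chosen by their counts in these libraries across the 3 groups, so the levels and fold changes that follow are descriptions and carry no test. All 9 passed the filter on low counts. Compared per gene length, on the deposited FPKM scale, Bhlhe40 had the highest mean level of the 9 genes in CTRL liver, at 29.4 ± 8.37 FPKM (SD, n = 2). Below it came Tef (15.5 ± 9.4), Dbp (10.1 ± 9.9), Bcl6 (9.48 ± 11), Nfil3 (9.47 ± 0.214), Rora (7.05 ± 1.16) and Hlf (4.74 ± 2.62), and neighbours from Tef to Nfil3 in this order overlapped between libraries, as did Rora and Hlf, while Nfil3 and Rora did not. Ciart (0.507 ± 0.471 FPKM) and Bhlhe41 (0.11 ± 0.00212 FPKM) were far below the others. In APAP_MSC the mean levels were 19.4 ± 4.76 FPKM for Tef, 17.8 ± 5.77 for Bhlhe40, 15.3 ± 2.09 for Nfil3, 7.33 ± 2.19 for Rora, 6.68 ± 7.57 for Bcl6, 6.10 ± 0.509 for Hlf and 4.81 ± 3.73 for Dbp (SD, n = 3). In APAP_PBS they were 22.4 ± 0.348 FPKM for Bhlhe40, 19.7 ± 5.31 for Nfil3, 19.2 ± 2.61 for Tef, 8.71 ± 1.67 for Rora, 8.08 ± 6.17 for Bcl6, 6.21 ± 0.550 for Hlf and 2.11 ± 0.348 for Dbp (SD, n = 3). Neighbours among the first 3 genes overlapped in both orders, and in APAP_PBS Dbp was below every library of Hlf.

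Dbp, a PAR bZIP activator with a steep daily rhythm in liver, lies on chromosome 7 (GRCm38, GENCODE M21, 45705088 to 45710203, plus strand). Its level was 2.86, 16.2 and 5.80 CPM in APAP_MSC, 3.67, 3.69 and 2.69 CPM in APAP_PBS and 5.84 and 31.4 CPM in CTRL. All 3 APAP_PBS libraries were below both CTRL libraries, whereas APAP_MSC overlapped both other groups. Within the deeper set Dbp was at 16.2 and 5.80 CPM in APAP_MSC, 3.69 in APAP_PBS and 31.4 in CTRL. Within the shallower set it was at 2.86 CPM in APAP_MSC, 3.67 and 2.69 in APAP_PBS and 5.84 in CTRL. In each group every deeper library was thus above every shallower one, though barely so in APAP_PBS. The log2 fold change of APAP_PBS over CTRL was -2.49 ± 0.93 (SE from the fit over all genes) and became -0.79 when CTRL replicate 2, the library with the highest level, was left out. With the depth set as a term in the fit it was -1.875. That of APAP_MSC over APAP_PBS was 1.31 ± 0.88, and 0.39 without APAP_MSC replicate 2. Sphk2 overlaps Dbp by 737 bases on the opposite strand, and the Dbp counts are not whole in any library. All members but Hlf and Nfil3 share bases with a gene on the opposite strand, and as the strand setting is not stated, reads there cannot be told apart.

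Tef (chromosome 15, 81802421 to 81826863, plus strand), a second PAR bZIP activator, had 53.8, 87.9 and 85.4 CPM in APAP_MSC, 75.2, 62.6 and 64.8 CPM in APAP_PBS and 38.5 and 98.2 CPM in CTRL. Hlf (chromosome 11, 90336536 to 90390895, minus strand), the third of them, had 35.5, 33.1 and 29.9 CPM in APAP_MSC, 29.5, 35.1 and 35.0 CPM in APAP_PBS and 19.1 and 39.7 CPM in CTRL. For both genes the CTRL libraries were the lowest and the highest of all 8, so every APAP library lay between them. The sign of their difference from CTRL followed the CTRL library used: Hlf in APAP_PBS differed by 0.81 on the log2 scale when CTRL replicate 2 was left out and by -0.25 when CTRL replicate 1 was left out.

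Nfil3, the D-box repressor (chromosome 13, 52967209 to 52981073, minus strand), had 33.8, 28.5 and 28.7 CPM in APAP_MSC, 34.8, 28.8 and 50.4 CPM in APAP_PBS and 22.9 and 20.2 CPM in CTRL. Every APAP library was above both CTRL libraries, and the APAP groups overlapped. The log2 fold change was 0.50 ± 0.21 for APAP_MSC over CTRL and 0.82 ± 0.21 for APAP_PBS over CTRL. The APAP_PBS value was 0.57 without replicate 3, the highest library. Within the shallower set Nfil3 was at 33.8 CPM in APAP_MSC, 34.8 and 50.4 in APAP_PBS and 22.9 in CTRL, and within the deeper set at 28.5 and 28.7 CPM in APAP_MSC, 28.8 in APAP_PBS and 20.2 in CTRL.

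Bhlhe40, an E-box repressor (chromosome 6, 108660629 to 108666925, plus strand), lay the other way, with 39.2, 79.0 and 45.4 CPM in APAP_MSC, 65.5, 64.0 and 68.7 CPM in APAP_PBS and 85.5 and 117 CPM in CTRL. No APAP library reached the lower CTRL library. The log2 fold change was -0.90 ± 0.27 for APAP_MSC over CTRL and -0.62 ± 0.27 for APAP_PBS over CTRL. Without APAP_MSC replicate 2 the APAP_MSC value was -1.25. Its relative Bhlhe41 (chromosome 6, 145858243 to 145865558, minus strand) was close to the detection limit, with 4 to 20 counts per library. It ranged from 0.389 to 0.582 CPM in APAP_MSC, from 0.234 to 0.828 CPM in APAP_PBS and was 0.498 and 0.705 CPM in CTRL. A count of 0 would allow up to 3 counts, or 0.122 to 0.184 CPM at these depths, for counting error only.

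Ciart, an E-box repressor with the 3 E-boxes shown above (chromosome 3, 95878503 to 95882251, minus strand), was also low, with 4 to 32 counts per library. It had 0.642, 1.43 and 0.934 CPM in APAP_MSC, 1.41, 0.953 and 0.526 CPM in APAP_PBS and 0.285 and 1.03 CPM in CTRL. The groups overlapped. An antisense gene covers all 3749 bases of Ciart. Rora (chromosome 9, 68653786 to 69388246, plus strand), the activator at ROR elements, had 70.6, 89.0 and 39.9 CPM in APAP_MSC, 71.6, 61.3 and 84.8 CPM in APAP_PBS and 63.7 and 77.2 CPM in CTRL. Its groups overlapped too, and its log2 fold changes lay between -0.13 and 0.04 in the 3 comparisons, each smaller than its SE.

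Bcl6 (chromosome 16, 23965052 to 23988852, minus strand) had the widest range of the 9 genes within each group. It had 6.94, 56.7 and 8.56 CPM in APAP_MSC, 26.8, 6.21 and 48.8 CPM in APAP_PBS and 6.98 and 65.0 CPM in CTRL. In counts, the lowest and highest libraries were 119 and 1267 in APAP_MSC, 150 and 834 in APAP_PBS and 98 and 1382 in CTRL, so the range is not one of a few reads. Each group held at least 1 library between 6.21 and 8.56 CPM and at least 1 between 26.8 and 65.0 CPM, with none between these ranges, and both levels occurred in the shallower and in the deeper set. The highest library was 8.17 times the lowest in APAP_MSC, 7.85 times in APAP_PBS and 9.31 times in CTRL. The log2 fold changes between groups were -0.16 ± 1.29 for APAP_MSC over APAP_PBS, -0.59 ± 1.41 for APAP_MSC over CTRL and -0.43 ± 1.42 for APAP_PBS over CTRL, each smaller than its SE. The value over CTRL turned positive without CTRL replicate 2, to 1.81 in APAP_MSC and 1.96 in APAP_PBS. In whole liver, more cells with Bcl6 mRNA and more Bcl6 mRNA per cell cannot be told apart.

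**Figure D1:**
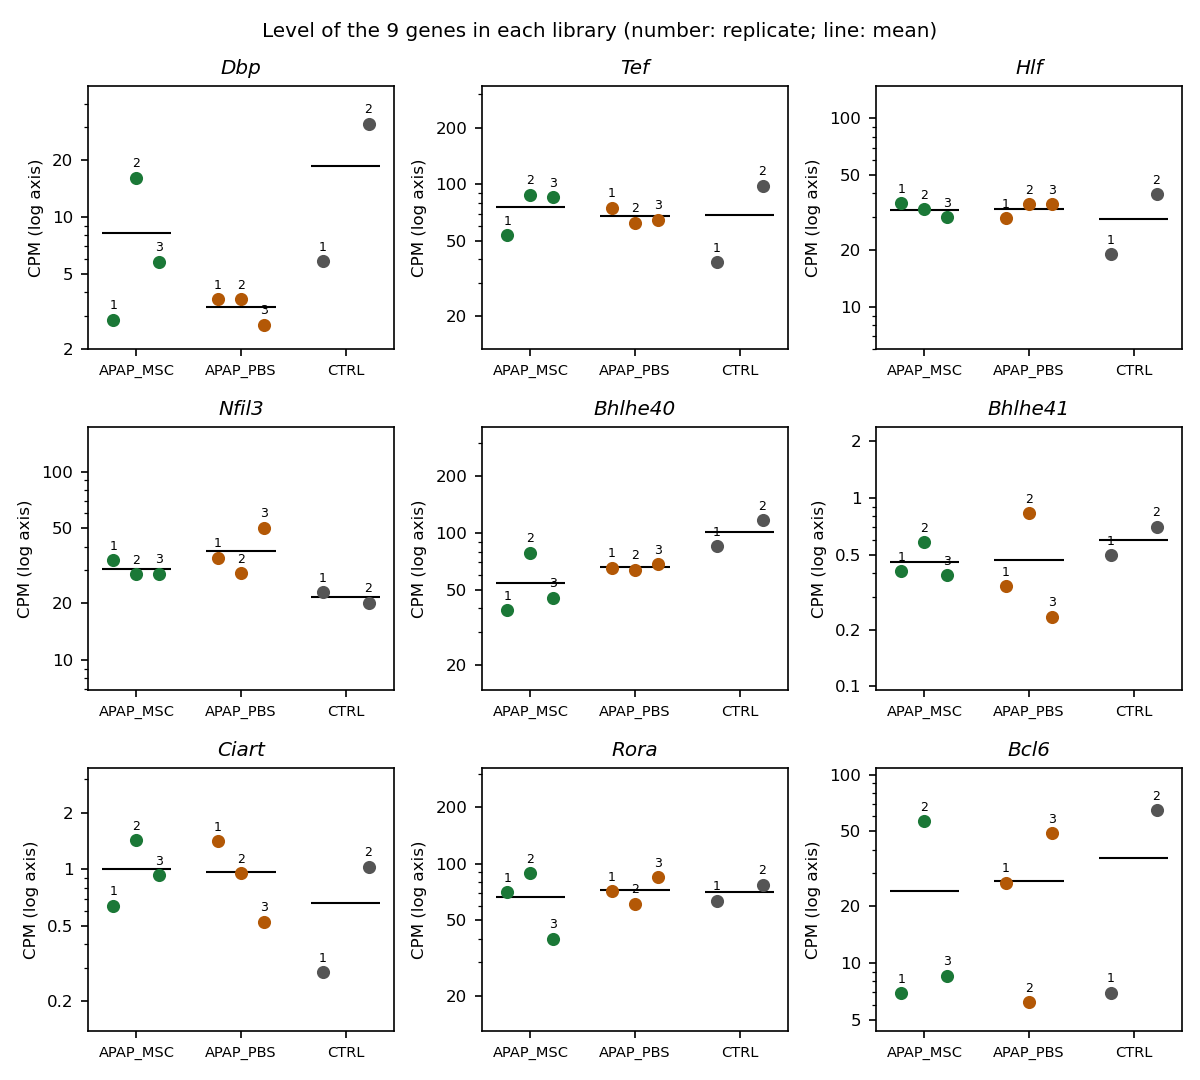
Level of each of the 9 genes in every library, in TMM-normalised CPM on a log axis; points are libraries numbered by replicate, and lines are group means. Bcl6 is spread over almost the same range in all 3 groups, Nfil3 is higher in every APAP library than in CTRL, and Bhlhe40 is lower in every APAP library than in CTRL.

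To set this spread beside that of other genes, the difference between the highest and lowest library of a group was taken on the log2 CPM scale for 8796 genes with a mean of at least 5 CPM. The median gene ranged over 0.33 in APAP_MSC, 0.21 in APAP_PBS and 0.18 in CTRL. Bcl6 ranged over 3.01 in APAP_MSC, 2.95 in APAP_PBS and 3.20 in CTRL, and 12, 3 and 13 of the 8796 genes ranged more widely in those groups. Dbp ranged over 2.46 in APAP_MSC and 2.41 in CTRL, where 23 and 17 genes were wider, but only over 0.44 in APAP_PBS, where 1109 genes were. Tef and Hlf were widest in CTRL, at 1.35 and 1.05. Nfil3 was widest in APAP_PBS (0.81), and Bhlhe40 and Rora were widest in APAP_MSC (1.01 and 1.15). These ranges describe 3 and 2 libraries a group and were not tested.

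**Figure D2:**
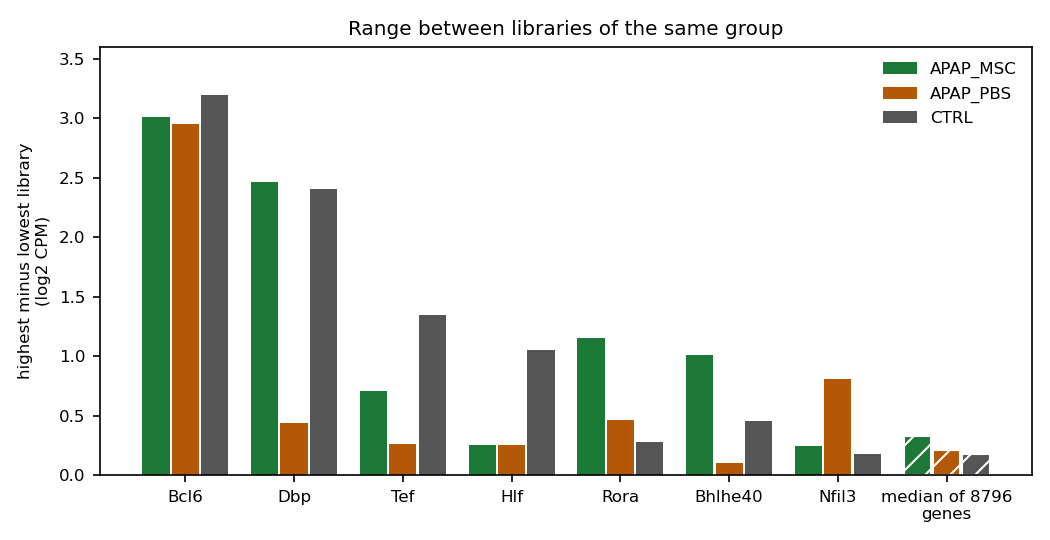
Difference between the highest and the lowest library of the same group, in log2 CPM, for the 7 members with a mean of at least 5 CPM, and, hatched, for the median of 8796 genes. Bars for Bcl6 are about 3 in all 3 groups, while those for the median gene are at most 0.33.

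The other genes of the clock loop were looked at in the same libraries to see which moved with the output factors. In the 2 libraries with the highest Dbp, APAP_MSC replicate 2 (16.2 CPM) and CTRL replicate 2 (31.4 CPM), the activator gene Arntl was at its lowest levels, with 15.3 CPM in APAP_MSC replicate 2 and 11.6 CPM in CTRL replicate 2. Elsewhere Arntl ranged from 16.0 to 25.02 CPM. Npas2, which encodes the partner of BMAL1 that can replace CLOCK, was at 0.626 CPM in APAP_MSC replicate 2, against 1.36 and 4.84 CPM in the other APAP_MSC libraries, and at 2.44 CPM in CTRL replicate 2, against 4.70 CPM in CTRL replicate 1. Nr1d1, encoding REV-ERB alpha, was at 57.3 CPM in APAP_MSC replicate 2, against 16.0 and 20.1 CPM in the rest of its group. In APAP_PBS it had 7.91, 13.8 and 18.4 CPM, and in CTRL 37.6 and 36.6 CPM. Its relative Nr1d2 was likewise highest in APAP_MSC replicate 2 (81.5 CPM), and Cry1, a repressor gene of the loop, was lowest of its group there (12.8 CPM, against 19.2 and 24.97 CPM). In CTRL, however, Cry1 was the higher in the library with high Dbp (16.0 CPM in replicate 2 and 12.2 CPM in replicate 1). The Per genes did not follow Dbp in APAP_MSC, where each was highest in replicate 3. Per1 had 12.1, 9.26 and 17.5 CPM there, Per2 7.06, 8.32 and 13.7 CPM and Per3 2.98, 4.61 and 4.67 CPM. In CTRL each was higher in replicate 2, with Per1 at 0.712 and 4.09 CPM, Per2 at 13.0 and 20.7 CPM and Per3 at 4.91 and 13.9 CPM. Clock itself had 67.1, 65.3 and 42.8 CPM in APAP_MSC, 56.8, 65.6 and 64.7 in APAP_PBS and 59.7 and 42.5 in CTRL. Bcl6 was also high in both libraries with high Dbp, but it was high in APAP_PBS replicate 3 as well, where Dbp was at its lowest (2.69 CPM). Both libraries with high Dbp were of the deeper set. The part of depth in these differences between libraries was not tested. Since the hour of collection is not given, its part in them was not tested either.

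**Figure D3:**
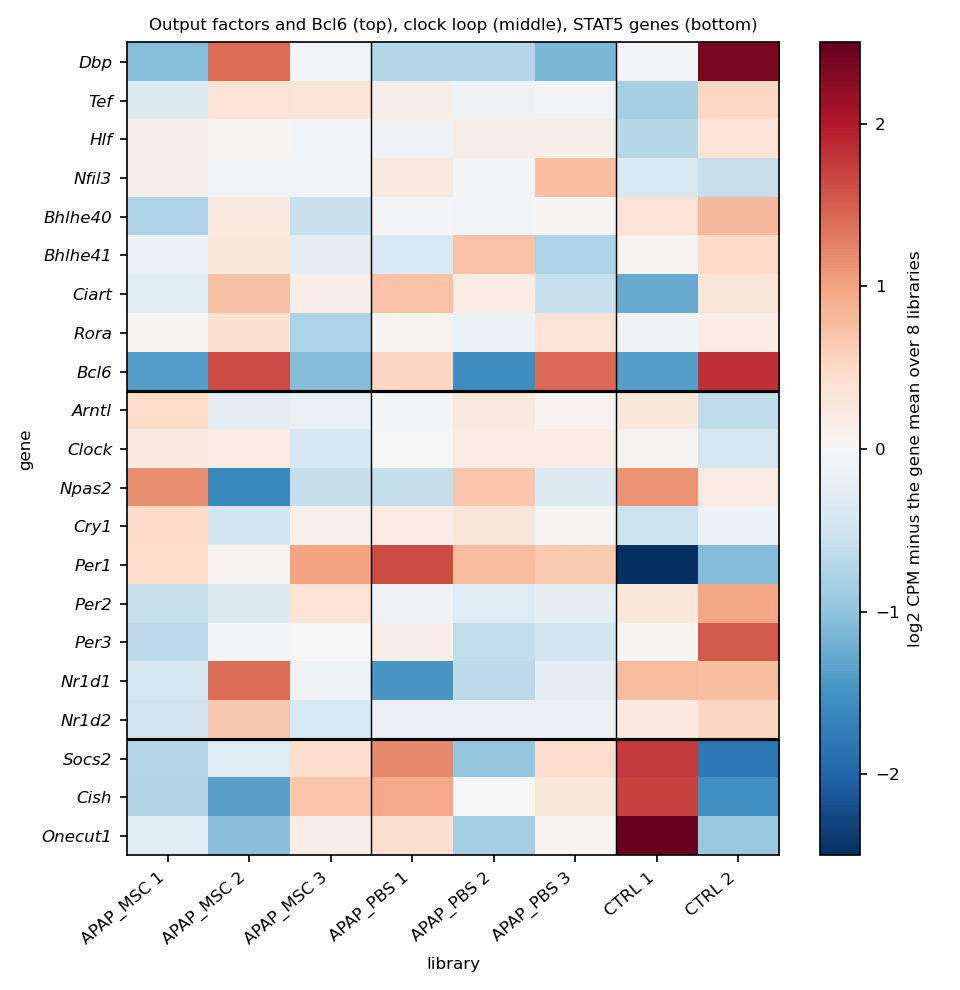
Log2 CPM of each gene minus its own mean over the 8 libraries, for the 9 members (top), 9 genes of the clock loop (middle) and 3 genes that STAT5 regulates (bottom); columns are libraries and red is above the gene's mean. Dbp and Bcl6 are both red in APAP_MSC replicate 2 and CTRL replicate 2, and Socs2, Cish and Onecut1 are red in CTRL replicate 1 and blue in CTRL replicate 2.

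APAP_PBS was compared with CTRL to see what accompanied APAP given with PBS. Of the 9 members, 1 (Nfil3, higher) passed a Benjamini-Hochberg adjusted p of 0.05 in edgeR's quasi-likelihood fit, where 10.3% of all 12722 tested genes passed, 4.29% higher and 5.97% lower. The groups did not overlap for 3 members (Dbp, Nfil3 and Bhlhe40), against 47.6% of all tested genes. Nothing is read from these counts, because the members were chosen with the levels known. The call of Nfil3 was lost in 8 of 16 alternative settings, among them with only the groups compared and without any one of 6 libraries: APAP_MSC replicate 1 or 3, APAP_PBS replicate 1 or 3, or CTRL replicate 1 or 2, with log2 fold changes between 0.57 and 0.92 without 1 library. Other members passed in some settings: Bhlhe40, lower, with only the groups compared and without APAP_MSC replicate 2, and Hlf, higher, without CTRL replicate 2. The median log2 fold change of the members was -0.02, beside 0.03 over all tested genes, and became -0.53 without CTRL replicate 1 and 0.74 without CTRL replicate 2.

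Of 15 other genes of the clock loop, 1 rose in APAP_PBS and 0 fell, with a median log2 fold change of -0.03. The gene that rose was Per1, a repressor of the loop that stress signals also induce. Per1 had 27.5, 15.1 and 13.9 CPM in APAP_PBS, against 0.712 and 4.09 CPM in CTRL, a log2 fold change of 2.86 ± 0.67 (edgeR adjusted p = 0.0451). The groups did not overlap. The call was near the threshold and was lost in 10 of 16 alternative settings (adjusted p up to 0.173), among them without APAP_MSC replicate 1 or 3, without any one APAP_PBS library, or without CTRL replicate 1. The log2 fold change was 2.20 without CTRL replicate 1 and 4.72 without CTRL replicate 2. Its relatives Per2 and Per3 were not called: Per2 had 9.67, 8.49 and 8.89 CPM in APAP_PBS and 13.0 and 20.7 CPM in CTRL (log2 fold change -0.91 ± 0.28, edgeR adjusted p = 0.0667), and Per3 differed by -1.29 ± 0.42 (edgeR adjusted p = 0.084). Of the relatives of the members, Bcl6b, Nr1d1 and Nr1d2 were not called, with log2 fold changes of 0.63 ± 0.36, -1.47 ± 0.62 and -0.58 ± 0.33, and Rorb had a count of 0 in every library.

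APAP_MSC was compared with CTRL as the second contrast with the control label. It shares the CTRL libraries with the first, so the 2 sets of values are not independent. Of the 9 members 0 passed the threshold, where 5.84% of all tested genes passed, 2.52% higher and 3.32% lower, and the groups did not overlap for 2 (Nfil3 and Bhlhe40), against 35.5% of all. At an unadjusted p under 0.05 there were 2 members (Nfil3 and Bhlhe40) and 2763 of the 12722 genes. DESeq2 took 1 member, Bhlhe40, past the threshold, as did edgeR without APAP_MSC replicate 2 (log2 fold change -1.25), while without CTRL replicate 2 edgeR took Hlf past it (0.80). Of the 15 clock loop genes 0 were called by edgeR, and Per1 had 12.1, 9.26 and 17.5 CPM in APAP_MSC (log2 fold change over CTRL 2.33 ± 0.66, edgeR adjusted p = 0.102). The median log2 fold change of the members was -0.09, beside 0.01 over all tested genes, and became 0.53 without CTRL replicate 2.

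APAP_MSC was compared with APAP_PBS to see what accompanied the MSC injection. By edgeR 0 of the 9 members passed, where 0.00786% of the tested genes (1 gene) passed; DESeq2 also called 0 members, and 842 of 12722 genes had an unadjusted p under 0.05. The groups overlapped for all 9 members, while 13.8% of all tested genes did not overlap. The log2 fold changes were -0.32 ± 0.18 for Nfil3, -0.28 ± 0.25 for Bhlhe40, 0.17 ± 0.35 for Tef and -0.02 ± 0.23 for Hlf. Of the 50 tested genes in the lists of the clock loop, outputs, STAT5, PPARA and relatives of the members, 0 were called by edgeR or DESeq2, with 5 at an unadjusted p under 0.05 by edgeR.

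**Figure D4:**
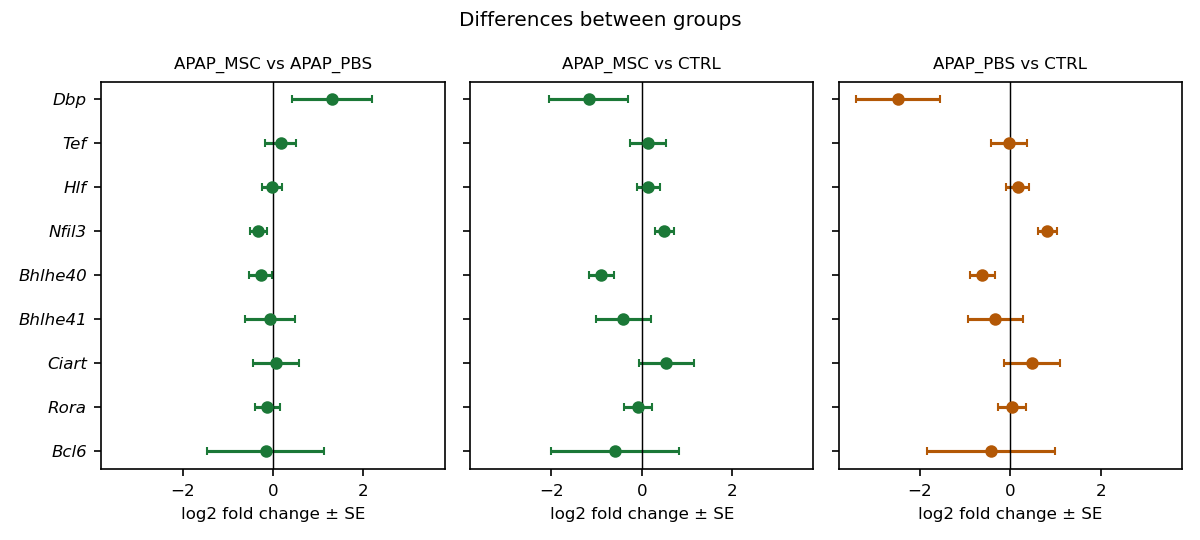
Log2 fold change of each member, with its SE from edgeR's fit over all 12722 genes, in the 3 comparisons; a positive value means higher in the group named first. The error bars of Bcl6 are the longest in each panel, Nfil3 is above and Bhlhe40 below 0 against CTRL in both APAP groups, and Dbp is lowest in APAP_PBS over CTRL, at -2.49.

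Genes downstream of the output factors were taken from lists of known targets. Of 11 rhythmic liver outputs with E-boxes or D-boxes, 1 rose and 0 fell in each APAP group against CTRL, with medians of 0.61 in APAP_MSC and 0.59 in APAP_PBS. The gene called in both was Nr1i3, encoding the xenobiotic receptor CAR, which PAR bZIP proteins activate in mouse liver. Nr1i3 had 80.3, 69.1 and 87.5 CPM in APAP_MSC, 64.6, 83.2 and 78.9 CPM in APAP_PBS and 26.6 and 43.6 CPM in CTRL. Its log2 fold change over CTRL was 1.17 ± 0.21 in APAP_MSC (edgeR adjusted p = 0.0116) and 1.10 ± 0.21 in APAP_PBS (edgeR adjusted p = 0.00934), and it passed in all 16 alternative settings in both. All APAP libraries were above both CTRL libraries, and the APAP groups overlapped.

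Cyp7a1, the rate-limiting enzyme of bile acid synthesis and a DBP target in rat, had 10.4, 11.3 and 2.61 CPM in APAP_MSC, 14.0, 7.0 and 11.7 CPM in APAP_PBS and 43.7 and 167 CPM in CTRL. The APAP libraries lay below both CTRL libraries, but the difference was not called (edgeR adjusted p = 0.0615 in APAP_MSC and 0.0602 in APAP_PBS). Cyp2a5, a P450 that DBP activates in mouse liver, ranged from 547 to 1410 CPM in APAP_MSC and from 528 to 1136 CPM in APAP_PBS, against 166 and 294 CPM in CTRL, and was not called either (edgeR adjusted p = 0.0775 in APAP_MSC and 0.0741 in APAP_PBS). Cyp2a4 and Cyp2a5 are close copies, so reads may have been shared between them and the level of each alone is uncertain. Alas1, the first enzyme of heme synthesis, had a log2 fold change of 1.98 ± 0.64 in APAP_PBS over CTRL (edgeR adjusted p = 0.115).

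BCL6 shares sites with STAT5, so genes of the growth hormone and STAT5 axis were looked at next. Of the 11 tested genes of this list, 2 rose and 0 fell in APAP_PBS against CTRL, with a median log2 fold change of -0.22. In APAP_MSC against CTRL 1 rose and 0 fell, with a median of -0.14. Of all tested genes 4.29% rose in APAP_PBS and 2.52% in APAP_MSC. Only Jak2 of the genes called is described here. Jak2, the kinase of the growth hormone receptor, differed by 0.57 ± 0.15 in APAP_PBS over CTRL (edgeR adjusted p = 0.0368, lost in 8 of 16 settings, among them without any one CTRL or APAP_PBS library or APAP_MSC replicate 1).

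Socs2 and Cish, feedback inhibitors that STAT5 induces, and Onecut1, a liver factor under growth hormone control, were taken beside Bcl6 library by library. In CTRL, replicate 1 had 17.1 CPM of Socs2, 17.0 of Cish and 82.5 of Onecut1, with Bcl6 at 6.98 CPM, and replicate 2 had 1.36, 1.74 and 7.62 CPM of these genes, with Bcl6 at 65.0 CPM. Their order was thus opposite to that of Bcl6 in CTRL, which was not so throughout the APAP groups. In APAP_PBS replicate 2, where Bcl6 was lowest (6.21 CPM), Socs2 (2.53 CPM), Cish (5.14 CPM) and Onecut1 (8.24 CPM) were also the lowest of their group. In APAP_MSC replicate 2, where Bcl6 was highest (56.7 CPM), Cish (1.97 CPM) and Onecut1 (7.07 CPM) were the lowest of their group and Socs2 (3.98 CPM) was between the other libraries. None of the 3 was called in any comparison.

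Of 12 PPARA-induced genes of fatty acid handling, which BCL6 represses in mouse liver, 3 fell and 0 rose in each APAP group against CTRL, with medians of -0.06 in APAP_MSC and -0.23 in APAP_PBS. Of all tested genes 3.32% fell in APAP_MSC and 5.97% in APAP_PBS. The list did not move as a whole, since 6 of its 12 log2 fold changes were positive in APAP_MSC and 5 in APAP_PBS. Cyp4a14 had 501, 133 and 494 CPM in APAP_MSC, 566, 287 and 259.5 CPM in APAP_PBS and 80.5 and 168 CPM in CTRL, and was not called. Ehhadh, a peroxisomal oxidation enzyme, had 129, 139 and 109 CPM in APAP_MSC, 127, 110 and 104 CPM in APAP_PBS and 291 and 339 CPM in CTRL (edgeR adjusted p = 0.000353 in APAP_MSC and 0.000176 in APAP_PBS). Pdk4, which restrains pyruvate oxidation, differed from CTRL by -1.39 ± 0.17 in APAP_MSC (edgeR adjusted p = 0.00122) and by -0.94 ± 0.17 in APAP_PBS (edgeR adjusted p = 0.00656, lost without CTRL replicate 2 and on FPKM). Acot1, a cytosolic acyl-CoA thioesterase, differed by -0.73 ± 0.17 in APAP_MSC (edgeR adjusted p = 0.0285, lost in 8 of 16 settings, among them without either CTRL library, APAP_MSC replicate 1 or APAP_PBS replicate 3) and by -1.03 ± 0.17 in APAP_PBS (edgeR adjusted p = 0.0046). Fgf21, a hormone gene that both BCL6 and NFIL3 repress, was at 0.117 to 1.25 CPM in APAP_MSC and 0.339 to 1.40 CPM in APAP_PBS, against 3.28 and 1.46 CPM in CTRL, and was not called. Its counts were low, at 2 to 32 in APAP_MSC, 6 to 24 in APAP_PBS and 46 and 31 in CTRL. The lowest, 2 counts in APAP_MSC replicate 1, is within the 3 counts that a count of 0 would allow. The CTRL libraries held 6.98 and 65.0 CPM of Bcl6. In the same order Ehhadh was at 291 and 339 CPM, Pdk4 at 14.3 and 14.8 CPM and Acot1 at 9.54 and 10.4 CPM. A call favours genes with a small spread within groups, so nothing is read from these near levels. Of the genes not called, Cyp4a14 was at 80.5 and 168 CPM and Fgf21 at 3.28 and 1.46 CPM. The part of Bcl6 in these levels was not tested.

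Of the 52 genes of these lists 50 were tested. In APAP_PBS against CTRL 4 rose and 3 fell, and in APAP_MSC against CTRL 2 rose and 3 fell. The shares over all tested genes, 10.3% and 5.84%, are the background for those counts. Leaving out 1 library gave 4 to 12 calls in APAP_PBS and 3 to 9 in APAP_MSC, in both with the most without APAP_MSC replicate 2. The fewest came without any one APAP_PBS library in APAP_PBS and without APAP_PBS replicate 3 in APAP_MSC.

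Several members are also expressed in blood cells: Nfil3 is needed for natural killer cells, Bhlhe40 and Rora act in lymphocytes and macrophages, and Bcl6 in germinal centre B cells. Markers of such cells were therefore summed per library. The 8 neutrophil markers summed to 3.50 to 5.54 CPM in APAP_MSC, 5.15 to 23.85 in APAP_PBS and 2.35 and 2.92 in CTRL; 5 were tested, and 2 were higher in APAP_PBS than in CTRL (S100a8 and Retnlg, both lost without APAP_PBS replicate 1 or CTRL replicate 2, and Retnlg also without CTRL replicate 1). In CTRL, S100a8 had 5 and 1 counts and Retnlg 2 and 1, near or within the 3 counts that a count of 0 would allow. Neither gene gave a value under the stricter low-count filter. The APAP_PBS library with the most Nfil3, replicate 3, had the lowest neutrophil sum of its group (5.15 CPM). It also had the highest sum of T, NK and innate lymphoid markers of its group (2.63 CPM). The part of these cells in its Nfil3 level was not tested. The 7 monocyte and macrophage markers summed to 116.5 to 165 CPM in APAP_MSC, 146 to 252 in APAP_PBS and 112 and 176 in CTRL, and Ccr2 and Cd68 were higher in APAP_PBS than in CTRL, both lost without either CTRL library. Of the hepatocyte markers Ttr was lower in APAP_PBS than in CTRL, lost without any one library of either group. The 5 Kupffer cell markers summed to 160 to 269 CPM in APAP_MSC, 161 to 266 in APAP_PBS and 173 and 233 in CTRL.

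The 10 T, NK and innate lymphoid markers summed to 0.875 to 3.49 CPM in APAP_MSC, 1.98 to 2.63 in APAP_PBS and 2.35 and 3.81 in CTRL, and the 6 B and plasma cell markers to 0.992 to 1.57 CPM, 0.704 to 2.32 CPM and 2.26 and 2.85 CPM in the same groups. No marker was at 0 in all libraries. The lymphoid sum was highest in the library with the most Bcl6 in each group: APAP_MSC replicate 2 (3.49 CPM), APAP_PBS replicate 3 (2.63 CPM) and CTRL replicate 2 (3.81 CPM). Bcl6 was at 56.7, 48.8 and 65.0 CPM in those libraries. Only 3 of the 10 lymphoid markers passed the filter on low counts, so the order of these sums rests on few reads. Below the highest library the order in APAP_PBS did not follow Bcl6. Replicate 1 had a lymphoid sum of 1.98 CPM with Bcl6 at 26.8 CPM, and replicate 2 had 1.99 CPM with Bcl6 at 6.21 CPM. The B and plasma cell sum was highest in APAP_MSC replicate 2 (1.57 CPM), but elsewhere in APAP_PBS replicate 1 (2.32 CPM, against 1.23 CPM in replicate 3) and in CTRL replicate 1 (2.85 CPM, against 2.26 CPM in replicate 2), not in the library with the most Bcl6. Their part in the levels of the 9 genes was not tested.

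The genes most like each member were taken as those with the smallest root mean square difference of log2 CPM, each centred on its own mean over the 8 libraries, among 8619 genes. For Nfil3 these were Hecw2 and Litaf (0.16 each, where the median gene was at 0.41), and Litaf had 52.9 to 60.4 CPM in APAP_MSC, 59.5 to 75.9 in APAP_PBS and 44.5 and 41.8 in CTRL. For Bhlhe40 they were Map3k20 (0.17) and Csad (0.18), for Tef Slc15a4 (0.17) and Adgre1 (0.18), for Hlf Sec22c (0.12) and Edrf1 (0.13), and for Rora Mier1 (0.12) and Rsf1 (0.13). Ciart was nearest to Smad3 (0.34) and Kcnk5 (0.35), where the median gene was at 0.66. Bhlhe41 was nearest to Map3k13 (0.27) and Mn1 (0.28), where the median gene was at 0.48. For Dbp, Lepr, the leptin receptor, and Ugt1a5 were nearest, at 0.64 each, where the median gene was at 1.18. Bcl6 had the least close match of all 9, with Slc25a47 at 1.03 and Hamp at 1.06, where the median gene was at 1.41. These likenesses rest on 8 libraries, which share their depth and group, and are descriptions.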

How the data were processed

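Liver mRNA of 8 mouse samples was measured by sequencing. Per the labels' protocols, RNA was taken up on oligo(dT) beads and made into NEBNext Ultra libraries; fastp 0.18.0 is named in the submitters' processing notes, while for aligner, quantifier, build and strand setting the sources used here give no name. The authors deposited estimated counts and FPKM per gene; 6.39% to 7.46% of the count values per library are not whole, and they were rounded for tests. The deposited FPKM values, scaled to gene length and library size, served to compare levels between genes and, as log2(FPKM + 1), as an alternative. Symbols and positions came from GENCODE M21 (GRCm38), which named 22128 of 22183 IDs; the authors' build may differ. Sample titles gave the groups. After filterByExpr 12722 genes were left; these were TMM-scaled and fitted with edgeR 4.0.16 (R 4.3.3; glmQLFit, robust) with 1 coefficient per group over all 8 libraries; the threshold is an adjusted p of 0.05 (Benjamini-Hochberg over all tested genes), and the SE is the fold change over the root of F. The fit was tested on simulated data. The members and lists were chosen with earlier results of these data known. Named genes are the 9 members, up to 4 genes per list and comparison with the smallest adjusted p, a fixed set of clock and STAT5 genes, the 2 nearest genes per member and, chosen after their values were seen, called cell markers. Alternatives were DESeq2 1.42.0, limma 3.58.1 on FPKM, library size alone, other filters, only the groups compared, a replicate block, each library left out and, chosen after seeing the data, the depth set as a term. Some listed genes are not reported here; they remain in the counts over all lists.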

Additional observations from a re-analysis of the deposited data

How the results depend on the processing

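Over 16 alternative settings, 8 of which leave out 1 library, 10 of the 27 log2 fold changes of members kept their sign in all settings that gave a value, among them Nfil3 (0.57 to 1.06) and Bhlhe40 (-0.82 to -0.35) in APAP_PBS over CTRL and Bhlhe40 (-1.25 to -0.63) in APAP_MSC over CTRL; the other 17 changed sign in at least 1. Bhlhe41 and Ciart gave no value under the stricter filter, nor Bhlhe41 without APAP_PBS replicate 2. Bhlhe41 gave a value in 14 settings in each comparison with CTRL and in 13 in APAP_MSC over APAP_PBS. The median over members, -0.02 in APAP_PBS over CTRL, ranged from -0.53 to 0.74 when 1 library was left out, and that of APAP_MSC over CTRL, -0.09, from -0.36 to 0.53; in APAP_MSC over APAP_PBS it stayed within 1 SD. The genes of the fixed lists called in APAP_PBS against CTRL were 7 and became 13 with DESeq2, 11 with only the groups compared, 4 with depth set as a term and 4 to 12 without 1 library. In APAP_MSC against CTRL they were 5 and became 11 with DESeq2, 3 with only the groups compared and 3 to 9 without 1 library. In APAP_MSC against APAP_PBS they were 0 throughout. Scaling by library size alone moved the all-gene median of APAP_PBS over CTRL to 0.27, with 1620 genes called higher and 371 lower in place of 546 and 760; Nfil3 was at 1.06 and Bhlhe40 at -0.39. Replicate numbers come from the sample titles and were not taken as pairs in the main fit. Deviations of same-numbered libraries from their group means correlated at -0.063 to -0.002 over the 3 pairs of APAP_MSC and APAP_PBS. They correlated at 0.133 and 0.186 over the 2 pairs of APAP_MSC and CTRL, and at -0.147 and -0.029 over the 2 pairs of APAP_PBS and CTRL. With 3 or 2 libraries a group, these values cannot show whether samples were paired. With the replicate block the list genes called were 4 in APAP_PBS and 3 in APAP_MSC against CTRL, and Nfil3 in APAP_PBS over CTRL was at 0.70, not past the threshold. With 2 CTRL libraries that differ 5.38-fold for Dbp and 9.31-fold for Bcl6, differences of these genes from CTRL cannot be fixed in size at this number of libraries.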
